A study of Mus musculus with 4 samples.

Results

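RNA recovered with the protein NONO was set against the whole lysate it came from, in mouse primary hepatocytes given proline. One library was made from the NONO immunoprecipitate (IP) and one from the input, the portion of cleared lysate kept aside. The members are the transcripts with a mean level of at least 1 FPKM over the 4 libraries of the series, 12168 of the 21163 listed. FPKM is a fragment or read count scaled by transcript length and by the library total. The other 2 libraries, an input and a NONO IP, came from hepatocytes labelled as control and enter the choice of members and the side-by-side values. Each group holds 1 library, so every value describes a pair of libraries and no test of treatment or of binding was possible. The sources used here do not give strain, age, sex, proline dose or time of exposure. A mock IP was not analysed here.

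NONO is an RNA- and DNA-binding protein with paired RNA recognition motifs. With its partners SFPQ and PSPC1 it forms paraspeckles, nuclear bodies built on the long noncoding RNA Neat1, in which certain RNAs are held back from export. NONO also acts outside these bodies, in transcription, splicing and DNA repair, so an IP of NONO does not isolate paraspeckles alone. Proline is an amino acid that hepatocytes can turn into glutamate and feed into gluconeogenesis, and the series' title names that pathway.

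The deposited tables name transcripts by Ensembl identifier only, and 0 of the 21163 could be paired with a gene symbol through the RefSeq table used here. Paraspeckle, gluconeogenesis, proline and cell type genes could therefore not be looked up, and the label of hepatocyte could not be checked against markers. No sequence could be matched to a member either. Transcripts are told apart by their length in nucleotides (nt), which was recovered from the values, and 4 of them by identifier.

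The proline input held 20826758 reads and the proline IP 954824, so the input was 21.8 times deeper. Control totals were 22188003 and 1786928 reads, a ratio of 12.4. These totals and the whole read numbers behind each value were recovered from the FPKM steps. A read here is whatever unit the authors counted. A transcript of 3000 nt at 1 FPKM rested on 62.5 proline input reads and on 2.86 proline IP reads. A value of 0 in the proline IP allows a share of up to 0.000314% of its reads (3 reads of the total), against 1.44e-05% in the proline input. Intervals below are exact 95% intervals of the FPKM ratio from reads. They and these limits cover counting error only, not PCR copies or the spread between cultures.

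Most members sat at or below their lysate level in the proline IP. Of the 12168, 1080 (8.88%) were 2-fold or more above the input level in the IP and 2373 (19.5%) 2-fold or more below it, on the log2(FPKM + 1) scale, which understates changes of low transcripts. The median log2 difference was -0.31, with quartiles of -0.85 and 0.28 and extremes of -6.23 and 9.21. At 4-fold the counts were 297 higher (2.44%) and 408 lower (3.35%), and at 8-fold 90 higher (0.74%) and 89 lower (0.731%). At 16-fold there were 16 higher and 23 lower, and at 32-fold 7 and 5. The counting interval of the ratio lay wholly above 1 for 1941 members, wholly below 1 for 4530, and held 1 for 5697. The direction of the split depends on the scaling: higher transcripts made up 31.3% of the called ones as deposited, 40.3% with equal FPKM totals, 52.5% with totals that leave out the most-read transcript and 54.4% with differences centred on their median.

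**Figure D1:**
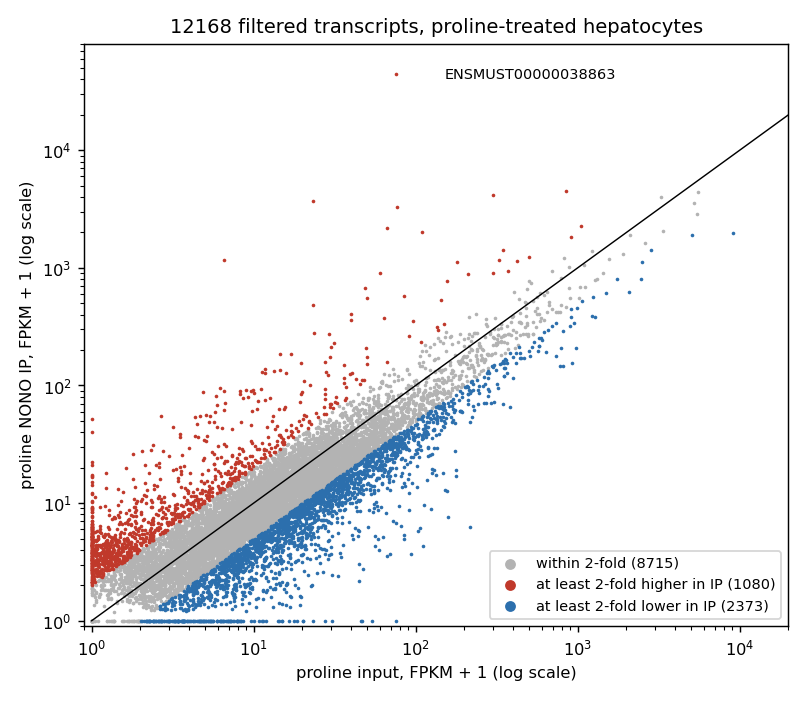
FPKM + 1 in the proline NONO IP (vertical, log scale) against FPKM + 1 in the proline input (horizontal, log scale), 1 point per member and 1 library per axis. The 1080 members 2-fold or more higher in the IP are red, the 2373 2-fold or more lower are blue and the other 8715 are grey. The line marks equal levels. ENSMUST00000038863 lies far above all other members, and most points at the abundant end lie below the line.

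The edge of the member rule runs through transcripts that are low in the lysate. The members nearest to it, with means of 1.0001 FPKM both, were at 0.539 FPKM in the input of proline and 2.24 in its IP (1872 nt), and at 0.572 and 0.870 FPKM (3611 nt). The nearest transcripts outside, with means of 0.9995 FPKM both, stood at 0.136 and 1.33 FPKM (107355 nt) and at 0.0903 and 1.97 FPKM (7979 nt). All 4 were higher in the IP. Of the 948 members below 1 FPKM in the proline input, 563 were 2-fold or more higher in the IP and 0 2-fold or more lower; such transcripts enter through IP values or through the control input, so this split is partly set by the rule. Members chosen on a proline input of at least 1 FPKM alone, 11409 transcripts, gave 517 higher and 2466 lower. Higher ones were 17.3% of those called. That choice rests on the lower term of the ratio and favours low ratios, so its split is partly set as well.

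The proline IP was concentrated on few transcripts, foremost on 1 that took 17.4% of its reads. Its 10 most-read transcripts took 25.8%, and the 10 most-read of the proline input took 8.95% there. In the proline IP the first transcript alone passed 10% of the reads, and 346 transcripts, with it included, made up 50%. The proline input needed 13 and 847. The control libraries gave 2 and 563 for the IP and 18 and 823 for the input. The 1080 higher members took 32.5% of the proline IP reads against 2.60% of the proline input reads. Without the most-read transcript the share of the higher members was 18.4% of the remaining IP reads and 2.57% of the remaining input reads. The 2373 lower members took 11.02% of the IP reads and 31.0% of the input reads. Both groups were called on the proline IP and the proline input themselves, so the direction of these differences is set by the call.

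**Figure D2:**
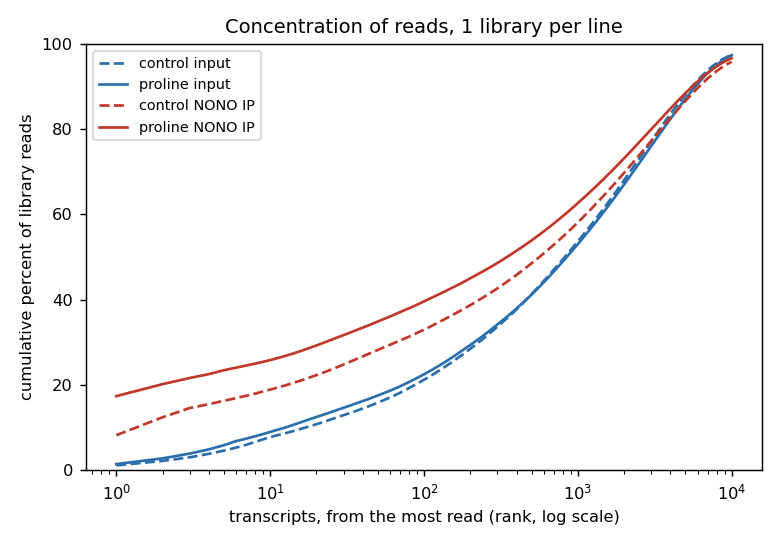
Cumulative percent of library reads (vertical) over transcripts ranked from the most read (horizontal, log scale), 1 line per library. The proline IP starts at 17.4% with its first transcript and stands at 39.6% after 100, the control IP at 32.9%, the proline input at 22.5% and the control input at 21.2%.

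The 10 transcripts with the most proline IP reads took 25.8% of that library and 5.52% of the proline input. ENSMUST00000038863, 3894 nt long, had a proline input level of 74.4 FPKM and an IP level of 44577 FPKM, on 6031 and 165742 reads. Its control values were 30.2 FPKM (input) and 21030.0 FPKM (IP). It took 17.4% of the proline IP reads and 0.0290% of the proline input reads. Both its proline values were above their control counterparts. Its IP over input ratio was 599 in proline (584 to 615) and 697 in control (670 to 724).

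The next most-read transcript is 123179 nt long, so that a moderate FPKM carries many reads. It had a proline input level of 30.5 FPKM and an IP level of 229 FPKM, a ratio of 7.50 (7.40 to 7.61), on 78288 and 26921 reads. In control it had 32.6 FPKM (input) and 342 FPKM (IP), a ratio of 10.5. The transcript of 4412 nt among the 10 had a proline input level of 59.6 FPKM and an IP level of 911 FPKM, a ratio of 15.3 (14.7 to 15.9), beside 55.2 and 1388 FPKM in control. One of 21388 nt had 47.7 FPKM (input) and 672 FPKM (IP) in proline, a ratio of 14.1 (13.8 to 14.4), beside 40.9 and 1014 FPKM in control. For all 3, inputs differed less between control and proline than IP levels did, and the IP level was lower in proline.

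Other members of the 10 had many IP reads without a high ratio. Transcripts of 2571, 2034, 1810 and 13934 nt stood at 692 to 5510 FPKM in the proline input. Their ratios in proline were 0.681, 0.809, 0.524 and 0.461, in that order. One of 1499 nt was near its lysate level at 1.22 (1.19 to 1.26).

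Ranking by the lower bound of the counting interval brought transcripts without lysate reads to the front. Of the 12 members with the highest lower bound, 9 had 0 reads in the proline input, and 8 of these had 0 in the control input too. ENSMUST00000091190, 4600 nt, was listed at 0 in both inputs, at 16.2 FPKM in the proline IP on 71 reads and at 20.4 FPKM in the control IP on 168 reads. With 3 reads put in place of 0 in each input, it was 516-fold higher than its input in proline and 695-fold higher in control. The lower bound of the interval, which also covers counting error in the IP, was 409 in proline and 559 in control. The other 8 rested on 22 to 54 proline IP reads, and their levels ran from 6.73 FPKM for a transcript of 3422 nt to 50.5 FPKM for one of 809 nt. All 12 were 2-fold or more higher in the control IP as well, a call made for 13.4% of all members and for 65.1% of those below 1 FPKM in the proline input. The 8 with no reads in either input became members only through IP values, so their count says nothing about the control pair.

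Such transcripts were a small part of the members, but a larger part of the higher ones, 175 of 1080. Of the 12168, 201 had no read in the proline input, and 175 of these had none in the control input either. Those with none in either input became members only through IP values. The larger part among the higher ones is thus partly set by the member rule. The median of the 201 in the proline IP was 3 reads, and 17 of them had 10 reads or more. No mock IP stands beside these reads.

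Among members with at least 1 FPKM in both inputs, a limit chosen after the values were seen, 10 with the highest lower bounds are described. The transcript of 449 nt had a proline input level of 5.56 FPKM and an IP level of 1164 FPKM, a ratio of 209 (157 to 284) resting on 52 input reads. Its control values were 3.51 FPKM (input) and 1254 FPKM (IP). The transcript of 1033 nt had a proline input level of 22.2 FPKM and an IP level of 3710 FPKM, a ratio of 167 (152 to 184), beside 23.9 and 3038 FPKM in control, a ratio of 127 (116 to 139). Both intervals in proline lay more than 100 times above the input.

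The remaining 7 ratios in proline ran from 18.2 (5371 nt) to 43.1 (925 nt). One of 8228 nt had a proline input level of 22.3 FPKM and an IP level of 479 FPKM, a ratio of 21.5 (20.5 to 22.5). Its control values were 20.1 and 694 FPKM, a ratio of 34.5 (33.2 to 35.8). One of 2876 nt was at 1.67 FPKM (input) and 54.3 FPKM (IP) in proline, with the ratio 32.5 (25.1 to 42.3), and at 2.01 and 94.8 FPKM in control, a ratio of 47.2 (38.8 to 57.9). All 10 were 2-fold or more higher in the control IP too, beside 13.4% of all members; the 10 were picked for high ratios.

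**Figure D3:**
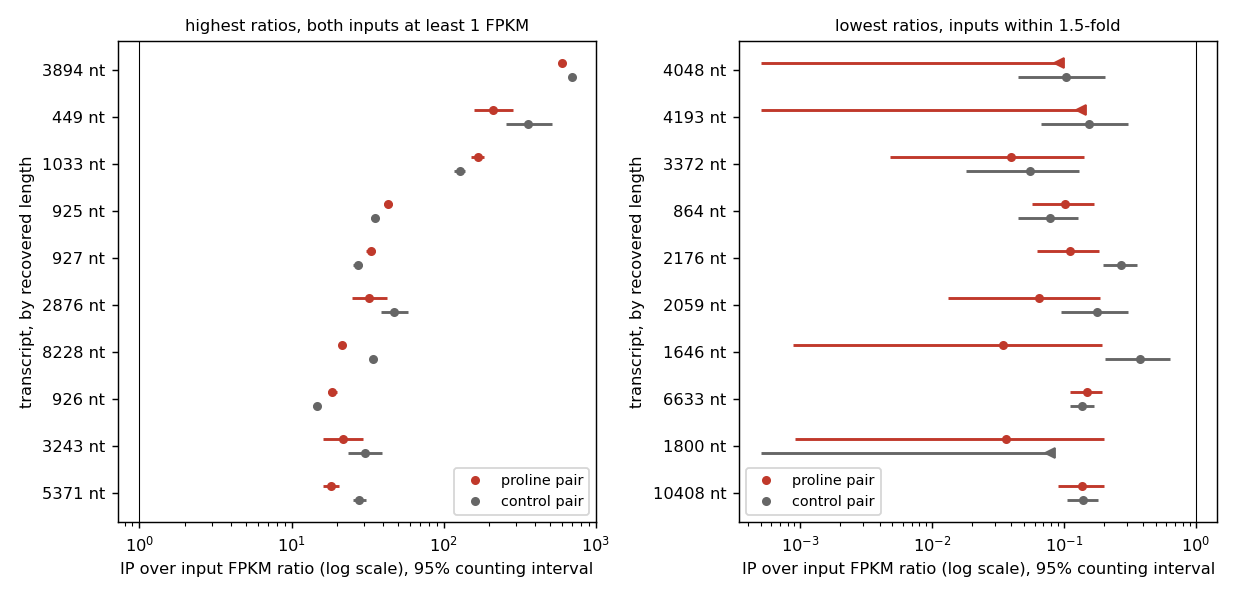
IP over input FPKM ratio (horizontal, log scale) with 95% counting intervals for 10 members with the highest ratios by lower bound (left; both inputs at least 1 FPKM) and 10 with the lowest by upper bound (right; inputs within 1.5-fold of each other), labelled by length. Red is the proline pair and grey the control pair, 1 library a side; an arrowhead marks the upper bound where the IP held 0 reads. All points on the left lie above 1 and all on the right below 1 in both pairs.

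A set of high ratios shared nearly the same length, a pattern picked after the values were seen. Of the 27 members of 920 to 930 nt with at least 1 FPKM in both inputs, 9 (33.3%) were 2-fold or more higher in the proline IP, all of them 925 to 930 nt long. Among the 534 members of 800 to 1100 nt outside that window and with the same input limit, 26 (4.87%) were. The 9 rested on at least 505 proline IP reads each and together took 1.66% of the proline IP reads and 0.272% of the proline input reads. In control they took 1.42% of the IP reads and 0.202% of the input reads.

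The most abundant of the 9, of 925 nt, had a proline input level of 846 FPKM and an IP level of 4521 FPKM, a ratio of 5.34 (5.16 to 5.53), beside 933 and 3958 FPKM in control. The other of 925 nt had a proline input level of 75.7 FPKM and an IP level of 3259 FPKM, a ratio of 43.1 (40.4 to 45.9), beside 79.2 and 2788 FPKM in control. One of 926 nt had a ratio of 18.6 in proline and 14.7 in control. The 9, and the 26 higher members of 800 to 1100 nt outside the window, were picked for a high proline ratio. This choice favours a higher ratio in proline than in control. Under the same input limit, 9 members of the window and 42 outside it were 2-fold or more higher in the control IP. The ratio was higher in proline than in control in 8 of the 9 and in 21 of the 26.

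The exception was a transcript of 928 nt with a large difference between the inputs. Its input was 73.8 FPKM in control and 1043 FPKM in proline, while its IP levels were 1730 FPKM in control and 2257 FPKM in proline. Its ratio was 23.5 in control and 2.16 in proline (2.07 to 2.27). The other 18 members of the window stood lower: 4 were 2-fold or more lower in the proline IP, and the highest ratio among them was 1.68 (0.993 to 2.68). Transcripts of near-equal length can be close copies between which reads are divided; their sequences were not used here, so each of the 9 values is uncertain in this respect.

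Ranking by the upper bound of the interval, which is low only where many IP reads were expected, led to transcripts with a high proline input. ENSMUST00000080511, 743 nt, stood at 74.1 FPKM (1147 reads) in the proline input and was listed at 0 in the proline IP, where 52.6 reads would match the input level. Its control values were 5.52 FPKM (input) and 2.26 FPKM (IP). With 3 reads put in place of 0 its proline IP level was 17.5-fold lower than its input, and the upper bound of the ratio was 0.0703. ENSMUST00000093962, 3740 nt, had a proline input level of 65.3 FPKM and an IP level of 2.52 FPKM on 9 reads, so that the ratio was 0.0386 (0.0176 to 0.0734). The control values were 33.1 and 1.95 FPKM, with the ratio 0.0588 (0.0313 to 0.101), so it was low in the IP of both pairs.

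Over the 12 members with the lowest upper bounds, the level in the proline input ran from 10.5 to 102 FPKM with a median of 44.6, and in the control input from 0.761 to 33.1 FPKM with a median of 5.09. Their IP levels were low in both conditions, from 0 to 4.78 FPKM in proline and from 0.390 to 4.34 FPKM in control. A transcript of 3008 nt had a proline input level of 46.4 FPKM and an IP level of 1.74 FPKM, a ratio of 0.0375 (0.0122 to 0.0876). In control it was at 3.28 FPKM (input) and 2.98 FPKM (IP), a ratio of 0.907 (0.509 to 1.51). One of 2193 nt stood at 102 FPKM in the proline input against 18.5 in the control input, with IP levels of 4.78 and 4.34 FPKM. In both transcripts the IP levels of the conditions lay closer together than the input levels.

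The proline input enters these ratios and also the comparison with the control input, so the low ratios and the high proline inputs share a library. In a bulk lysate, a higher level cannot be told apart from a larger share of cells that make the RNA. In the control pair 7 of the 12 were 2-fold or more lower in the IP, where 14.6% of all members were. Among the 7, those of 743 and 947 nt rested on 3 and 1 control IP reads. Their control intervals, 0.0829 to 1.23 and 0.00476 to 1.10, held 1. All 12 rested on at most 15 proline IP reads, and 6 of them on 0.

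**Figure D4:**
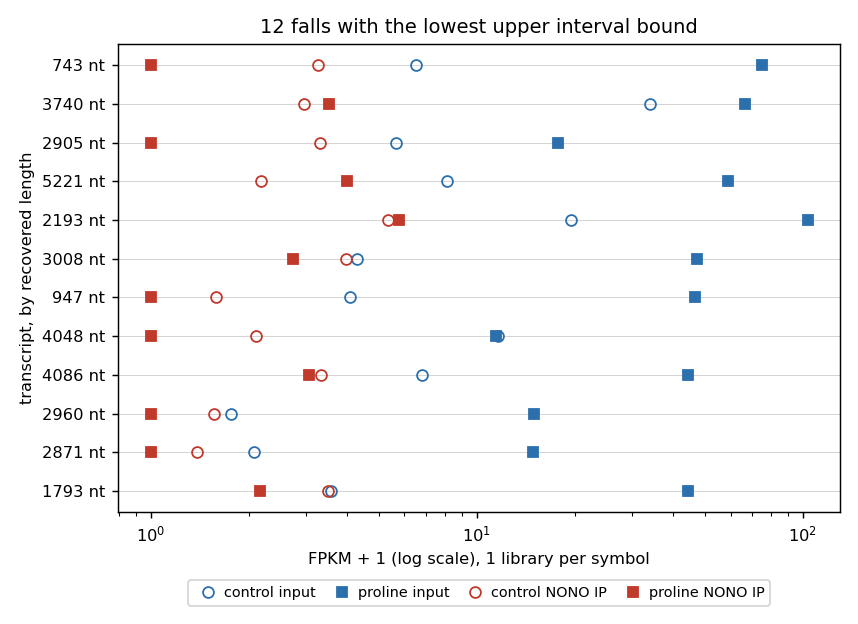
FPKM + 1 (horizontal, log scale) in each of the 4 libraries for the 12 members with the lowest upper bound of the IP over input ratio in proline, labelled by length. Blue is input and red is IP, open circles are control and filled squares are proline. Filled blue squares lie to the right of open blue circles for 11 of the 12, the transcript of 4048 nt being level at 10.5 and 10.7 FPKM, while the IP symbols stay below 5 FPKM.

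Low ratios were also found where the inputs were alike. Among members whose proline input lay within 1.5-fold of the control input, a condition added after the values were seen, the 10 with the lowest upper bounds were all 2-fold or more lower in both IPs. The 10 were picked for low proline ratios. In control, 14.6% of all members were 2-fold or more lower. The transcript of 4048 nt stood at 10.5 FPKM in the proline input on 884 reads and was listed at 0 in the proline IP, at least 13.5-fold lower. In control it had 10.7 FPKM (input) and 1.11 FPKM (IP), a ratio of 0.104 (0.0447 to 0.205). One of 864 nt, the most abundant of the 10, had a proline input level of 178 FPKM and an IP level of 18.2 FPKM, a ratio of 0.102 (0.0572 to 0.169), beside 132 and 10.4 FPKM in control.

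The best measured of these low ratios had overlapping intervals in the pairs. A transcript of 6633 nt had a proline input level of 54.1 FPKM and an IP level of 8.05 FPKM, a ratio of 0.149 (0.111 to 0.196) on 7472 and 51 reads, and its control ratio was 0.138 (0.111 to 0.169). One of 10408 nt was at 18.9 FPKM (input) and 2.62 FPKM (IP), with the ratio 0.138 (0.0901 to 0.203), with 0.140 (0.106 to 0.183) in control. The medians of the 10 were -3.25 in proline and -2.47 in control on the log2(FPKM + 1) scale.

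Absence from the proline IP was informative for few members. Of the 12168, 209 had 0 proline IP reads, but only 102 of these were expected to have 3 or more at the input level, and 13 to have 20 or more. The 13 stood at 4.43 to 74.1 FPKM in the proline input, and their control inputs ran from 0.761 to 17.6 FPKM. One of 461 nt, with inputs of 52.8 FPKM in proline and 5.28 FPKM in control, and one of 869 nt, at 26.7 and 17.6 FPKM, were at 0 in the control IP as well. For the transcript of 869 nt, 3 reads put in place of 0 make the proline IP 7.40-fold lower than the proline input. The upper bound of its ratio was 0.167.

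The IP over input difference was lower the more abundant a transcript was in the lysate, the lowest class being shaped by the member rule. By proline input, the 948 members below 1 FPKM had a median of 1.21 in log2 difference, and the 2667 between 1 and 5 FPKM one of -0.01. The 4963 between 5 and 20 FPKM had -0.33, the 2959 between 20 and 100 FPKM -0.64, and the 631 from 100 FPKM upward -0.80. In this top class 19 members (3.01%) were 2-fold or more higher in the IP and 248 (39.3%) 2-fold or more lower. The median level in that class was 187 FPKM before the IP and 118 FPKM after it.

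The proline input sets these classes and is also the lower term of the ratio. Classes set by the control input, a choice added after the data were seen, gave medians of -0.32 for 4526 members at 5 to 20 FPKM, -0.56 for 2980 at 20 to 100 FPKM and -0.72 for 616 at 100 FPKM or more. The order of the classes was therefore the same with a library that is not part of the ratio. With totals that leave out the most-read transcript, the median of all members moved by 0.30 to -0.0082, and the class medians by proline input became 1.45, 0.23, -0.02, -0.32 and -0.47. Relative to the other members the abundant ones stayed low, while the median of the 1 to 5 FPKM class changed sign.

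**Figure D5:**
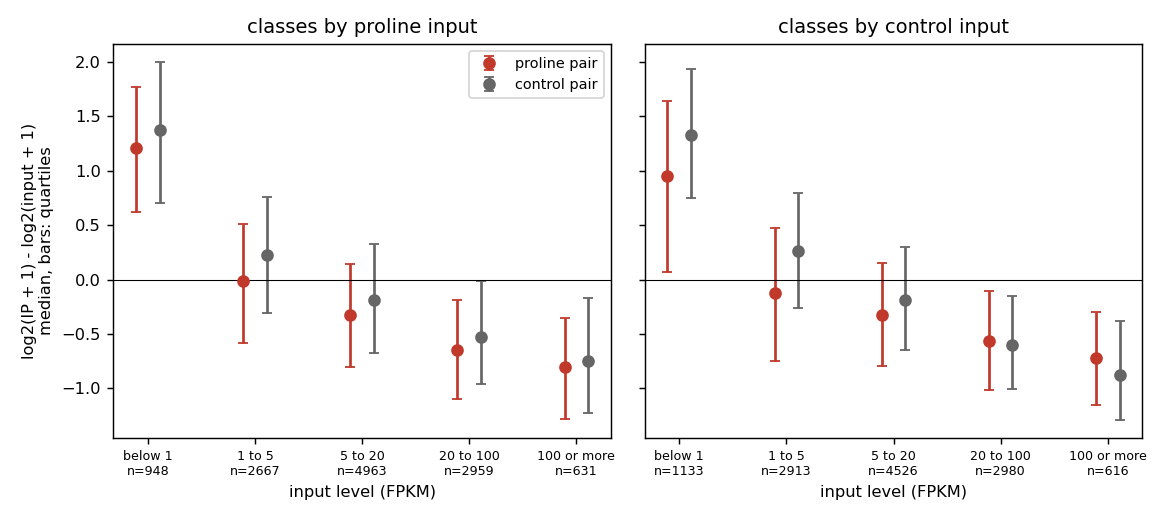
Median log2(FPKM + 1) difference of IP over input (vertical) by input level, with classes set by the proline input (left) and by the control input (right); bars span the quartiles over transcripts and n is the number of members. Red is the proline pair and grey the control pair. Medians step down from left to right in both panels and both pairs, from 1.21 to -0.80 for the proline pair with classes by the proline input.

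Length made less difference to the median than to the spread. The median was -0.35 for the 1060 members under 1000 nt, -0.31 for the 2821 of 1000 to 1999 nt, -0.32 for the 4758 of 2000 to 3999 nt, -0.30 for the 3009 of 4000 to 7999 nt and -0.22 for the 520 from 8000 nt upward. Quartiles were -1.11 and 0.62 in the shortest class and -0.62 and 0.26 in the longest. Of the shortest members 18.6% were 2-fold or more higher and 27.8% 2-fold or more lower, and of the longest 9.42% and 10.8%. Median proline IP reads went from 7 to 77 over these classes, so the wider spread of short transcripts came with fewer reads; how much of it is counting error was not tested.

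Within an input class the medians of the length classes followed no common order. At 5 to 20 FPKM they ran from -0.42 for 278 members under 1000 nt to -0.28 for 253 members of 8000 nt or more. At 100 FPKM or more the lowest median, -0.99, was that of 178 members of 2000 to 3999 nt, of which 2 were 2-fold or more higher and 84 2-fold or more lower. The 184 members under 1000 nt in that class had a median of -0.65, with 14 2-fold or more higher and 61 2-fold or more lower.

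High calls lay mostly where few IP reads were expected. At the input level, 584 members were expected to have under 1 proline IP read, and 421 of them were 2-fold or more higher, 339 with an interval above 1. Expected reads are the proline input reads scaled to the IP total, and so the lower term of the ratio. Members with few of them enter through IP values or the control input, so these counts are partly set by the rule. Among the 7184 members expected to have at least 20 IP reads, 187 were 2-fold or more higher and 1708 2-fold or more lower. Every one of them had an interval that excluded 1. At such read numbers a 2-fold call by itself places the interval off 1, so this adds nothing to the calls. Among the 216 expected to have 500 or more, the counts were 7 and 84, with a median log2 difference of -0.76. The upper bound of the interval was, at the median, 3.93 times the lower at 5 to 20 expected reads and 1.20 times at 500 or more.

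The most abundant lysate RNAs were mostly lower in the IP. The 10 highest members of the proline input, 2497 to 9152 FPKM, took 7.89% of its reads and 4.45% of the proline IP reads. The first, of 1545 nt, had a proline input level of 9152 FPKM and an IP level of 1975 FPKM, a ratio of 0.216 (0.208 to 0.224), beside 6793 and 2076 FPKM in control. That of 1920 nt was at 5072 FPKM (input) and 1917 FPKM (IP), with the ratio 0.378 (0.366 to 0.391), beside 3385 and 1447 FPKM in control. As deposited, 9 of the 10 had a ratio below 1. The 10 were picked on the proline input, the lower term of the ratio. Most members at 100 FPKM or more lay below their input too, with an upper quartile of -0.35 in log2 difference. The 4 that were 2-fold or more lower are a share near the 39.3% of all members at 100 FPKM or more, beside 19.5% of all members.

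Some of these calls rest on the scaling. With totals that leave out the most-read transcript, each proline ratio is 1.27 times higher and each control ratio 1.21 times higher. Then 8 of the 10 remained below 1, since that of 2034 nt moved from 0.809 to 1.03. The transcripts of 1794 and 1437 nt, at ratios of 0.497 and 0.450 as deposited, were no longer 2-fold lower, at 0.631 and 0.571. Nor was the transcript of 13934 nt, at a log2 difference of -1.12 as deposited and -0.77 rescaled.

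Beside the control pair, which shares no library with it, the proline pair shared 765 of its 2-fold higher members, 70.8% of the proline list and 46.9% of the control list. It shared 1031 of its 2-fold lower members, 43.5% of the proline list and 58.2% of the control list. At 2-fold, which direction overlapped more thus depends on the list taken as the whole. Of all members, 13.4% were 2-fold or more higher and 14.6% 2-fold or more lower in control. Of the 1080 higher in proline, 563 were below 1 FPKM in the proline input. In that class 65.1% were 2-fold or more higher in control, and the member rule favours a high IP, so the 765 are partly set by it. The next limit uses the FPKM ratio without the added 1, which admits more low transcripts among the higher ones. At 4-fold the log2(FPKM + 1) difference gave 297 higher members in proline and 476 in control. The whole interval of the ratio lay above 4-fold for 393 members in proline (3.23%) and 629 in control (5.17%). These had 322 in common, 81.9% of the proline list and 51.2% of the control list. The whole interval was more than 4-fold lower for 127 members in proline (1.04%) and 62 in control (0.51%). Here 14 were in common, 11.02% of the proline list and 22.6% of the control list. Of the 393, 275 were below 1 FPKM in the proline input, where the member rule favours a high IP in either condition, and a difference between the 2 overlaps was not tested.

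The members of these lists differed in how the 4 libraries stood. The 393 high ones had median levels of 0.180 FPKM (input) and 4.85 FPKM (IP) in proline, beside 0.208 and 6.15 FPKM in control. The 127 low ones had medians of 27.0 FPKM (input) and 2.33 FPKM (IP) in proline, beside 5.80 and 2.35 FPKM in control. The 127 were picked for low proline ratios, which favours high proline inputs and low proline IPs. The gap between their inputs is thus partly set by that choice. Of the 393, 385 lay above 0 on the log2 difference in control. Of the 127, 114 lay below 0 there, with a median of -1.21. Over all members the control median was -0.14, so values below 0 were the more common. For members below 1 FPKM in the proline input, as 275 of the 393 were, it was 1.37. The 385 are therefore partly set by the member rule.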

How the data were processed

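RIP-seq was done on 4 libraries of mouse primary hepatocytes, 1 per group. Hepatocytes were lysed in polysome buffer and the lysate incubated with antibody on magnetic beads, the RNA was treated with DNase I and proteinase K, and libraries were made with an NEBNext Ultra kit, per the labels' protocols. The authors deposited FPKM per Ensembl transcript. Genome builds GRCm38 and mm10 are named in the submitters' processing notes; the aligner, counting tool and annotation were not given in the sources used here.

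FPKM was used as deposited. Totals were found as the numbers that turn the lowest values into whole lengths, and the smallest whole length and reads that give all values of a transcript were taken; this held for 20230 of the 20230 transcripts above 0. Reads can be too few where length and reads share a factor; recovered reads made up 98.2% to 98.4% of the totals. Differences are log2(FPKM + 1), called at 2-fold. Intervals are Clopper-Pearson. No test was run. The steps were tested on simulated data (Python 3.11.15, numpy 2.4.6, scipy 1.17.1, numba 0.67.0).

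Named transcripts are, among members, the 12 with the highest lower and the 12 with the lowest upper interval bound, the 10 with the most proline IP reads and the 10 with the highest proline input; others were added after values were seen, as marked. At most 2 identifiers each way are printed. The members and lists were chosen with earlier results of these data known.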

Additional observations from a re-analysis of the deposited data

Results flagged for a closer look

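One named transcript went in opposite directions in the 2 pairs. The transcript of 1345 nt, sixth by proline input, had 3364 FPKM (input) and 2046 FPKM (IP) in proline, a ratio of 0.608 (0.585 to 0.632). In control it had 925 FPKM (input) and 1304 FPKM (IP), a ratio of 1.41 (1.36 to 1.46). Both were beyond counting error, each IP being 1 library against 1 input. The proline ratio stays below 1, at 0.771, with totals that leave out the most-read transcript. This difference between proline and control was not tested.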

How the results depend on the processing

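No paired analysis was possible because each group holds 1 library. As reported, 1080 transcripts were higher and 2373 lower, with a median log2 difference of -0.3071 and 31.28% higher among the called. With a pseudocount of 0.1 the median was -0.347 and the share 33.1%, and with 5 there were 332 higher and 1218 lower, a median of -0.2017 and a share of 21.42%. Without a filter 2196 were higher, the median was -0.0302 and the share 47.1%. With a proline input of at least 1 FPKM the values were 517, -0.3934 and 17.33%, and with a mean of at least 5 FPKM 439, -0.3996 and 19.84%. Equal FPKM totals gave a median of -0.1715 and a share of 40.29%. Totals without the most-read transcript gave 1410 lower, a median of -0.0082 and a share of 52.53%. Centring gave 1653 higher, 1385 lower and a share of 54.41%. Thinning the input to the IP depth gave a median of -0.2849 and a share of 34.81%. With at least 20 expected IP reads 187 were higher, the median was -0.505 and the share 9.868%. Counts not given here stayed within 1.5 times those reported. The filters and the read limit test fewer or more transcripts; the cause of the other differences was not tested. Of 49 named transcripts called, 3 dropped below 2-fold under the 3 scaling alternatives and 0 changed sign under the 5 alternatives run on them. The gap between the medians of the most abundant and the 5 to 20 FPKM class was -0.48, and -0.40 with classes by the control input.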
